A study of Mus musculus with 4 samples.

Results

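Type 2 innate lymphoid cells made up 160 of the 37361 barcodes kept from the mouse renal capsule, the fibrous layer that wraps the kidney. They were chosen by their transcripts. A member had at least 1 unique molecular identifier (UMI, 1 counted RNA molecule) of Gata3 and of Ptprc. It had at least 2 UMIs summed over Il1rl1, Calca, Arg1 and Il17rb, none of Cd3e and Cpa3, and fewer than 6 UMIs over C1qa, C1qb and C1qc. The series compared aged and young mice by droplet single-cell RNA sequencing of the 3' ends, with 2 libraries of each age. Capsules were taken off untreated kidneys, digested with Liberase TM and DNase I and sieved, with no sorting step in the labels. The aged libraries gave 39 and 41 members and the young libraries 49 and 31. The labels give neither the ages in weeks nor the strain, the sex or how many mice went into a library. The libraries of 1 age may therefore be technical replicates, and a p-value here speaks of the spread among these 4 libraries alone. Members held 230032 and 183567 UMIs in sum in aged and 191899 and 178383 UMIs in young libraries, with a median of 4058 and 3021 UMIs per barcode in aged and 3480.0 and 3559 in young ones. Pairs of libraries shared 22 to 40 barcodes, none of them a member's.

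These cells are tissue-resident lymphocytes that carry no antigen receptor and depend on the transcription factor Gata3. They respond to alarm signals from epithelial and stromal cells: interleukin-33 through the receptor Il1rl1 (ST2), interleukin-25 through Il17rb and thymic stromal lymphopoietin through Crlf2. Once activated they release type 2 cytokines such as interleukin-5 and interleukin-13, and amphiregulin (Areg), a growth factor known for its part in tissue repair. Arginase-1 (Arg1), which breaks down arginine, is a resting feature of many of them in the mouse, and Calca encodes the neuropeptide CGRP.

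The label was checked first against marker lists of other cell classes. In 37 of the 160 members the barcode also held 6 or more UMIs of the marker list of another class, which will be called mixed members here. There were 24 mixed members among the 80 from aged libraries and 13 among the 80 from young libraries. They held much RNA, 59.0% and 51.0% of all members' UMIs in the aged libraries against 22.8% and 53.7% in the young libraries. Fibroblast genes reached 6 UMIs in 13 aged and 8 young members, macrophage genes in 9 aged and 5 young members, and dendritic cell genes in 3 aged and no young members. Endothelial genes did so in 7 aged members and 1 young member, and proximal tubule genes in 4 young members and no aged member. Scrublet, which scores a barcode by its likeness to simulated pairs of cells, marked 20 of the 37 mixed members and none of the other 123. Those 123, 26 and 30 from aged and 44 and 23 from young libraries, will be called unmixed members. That split was made after the members' counts had been seen.

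**Figure D1:**
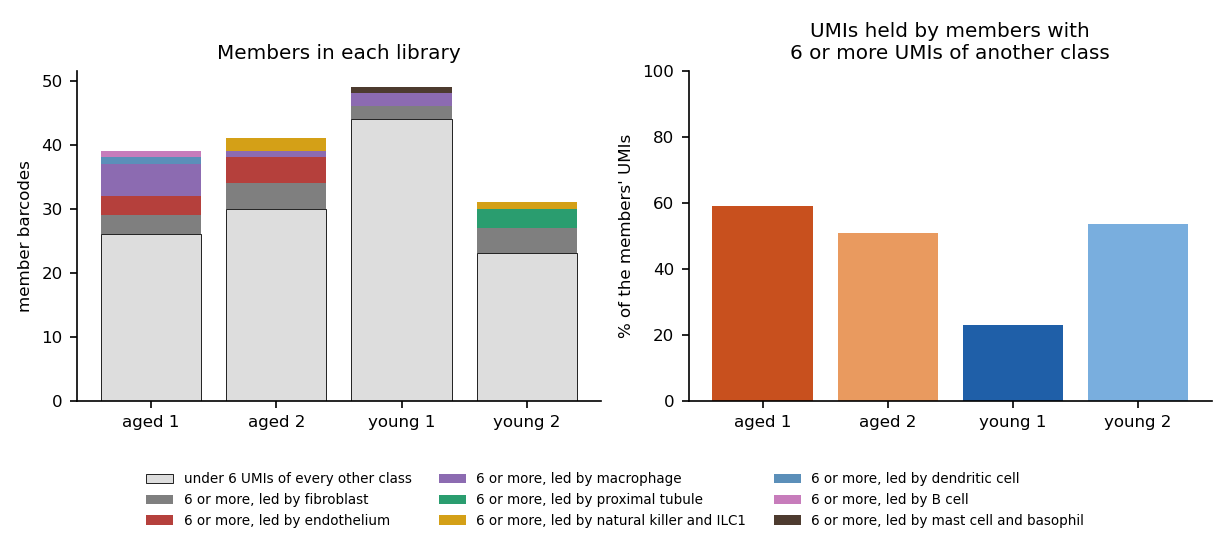
Left, members in each library (2 aged, 2 young), stacked by the other class whose marker list led in mixed members (6 or more UMIs), with unmixed members in light grey. Right, percent of the members' UMIs held by mixed members, which lay between 51.0% and 59.0% in 3 libraries and at 22.8% in young replicate 1.

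The genes the rule asks for, and the lists that defined unmixed members, cannot check the label, and their levels are given as a description. The 4 label genes Gata3, Il1rl1, Calca and Arg1 summed to 1930.5 and 2324 CPM (the UMIs of a gene per 1000000 UMIs of the class in that library) in aged and to 2708 and 2470.3 CPM in young unmixed members, against 78.1 and 79.4 CPM in aged and 134 and 95.1 CPM in young T cells. In unmixed members the macrophage list, with a UMI of 9 of its 10 genes, summed to 424 and 278 CPM in aged and 412 and 291 CPM in young libraries. All 7 fibroblast genes had a UMI and summed to 95.5 and 66.7 CPM in aged and 371 and 254 CPM in young libraries. The B cell list, with 2 of its 6 genes, was at 212 and 278 CPM in aged and 176 and 72.7 CPM in young libraries. The 5 proximal tubule genes were at 31.8 and 44.5 CPM in aged and 142 and 84.8 CPM in young libraries, and the natural killer list, with 6 of its 10 genes, at 42.4 and 66.7 CPM in aged and 6.75 and 0 CPM in young libraries. Aged and young libraries did not overlap for the fibroblast, B cell, proximal tubule and natural killer lists. All 7 genes of the dendritic cell list and 3 of the 5 endothelial genes had no UMI. Genes of T cells other than Cd3e were used by neither choice. Trac, the constant part of the T cell receptor alpha chain, had no UMI in 123 unmixed members. It was seen in 18.9% and 13.4% of aged and 10.6% and 13.5% of young T cells at similar depths, and a count of 0 in 123 allows up to 2.44% of unmixed members to hold one. Trbc2, the beta chain constant gene, was found in 76.9% and 63.3% of aged and 84.1% and 82.6% of young unmixed members. Cd3d was found in 15.4% and 10.0% of aged unmixed members and in 0% and 4.35% of young ones, against 94.6% to 96.4% of T cells. Summed over the 12 T cell genes of the list, 8 of which had a UMI, unmixed members reached 1177 and 901 CPM in aged and 1026 and 1138 CPM in young libraries. T cells reached 5787 and 5464 CPM in aged and 4261 and 4380.5 CPM in young libraries. The gamma delta T cell list was at 286 and 222 CPM in aged and 398 and 472 CPM in young unmixed members. In T cells it was at 404 and 380 CPM in aged and 461 and 559 CPM in young libraries. The regulatory T cell list, which includes Il2ra, was at 477 and 256 CPM in aged and 331 and 303 CPM in young unmixed members. In T cells that list was at 156 and 128 CPM in aged and 107 and 160 CPM in young libraries. Some T cell transcript was therefore present at both ages, and its part in the results was not tested beyond leaving out barcodes with Cd3d, Cd3g, Trac or Foxp3.

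**Figure D2:**
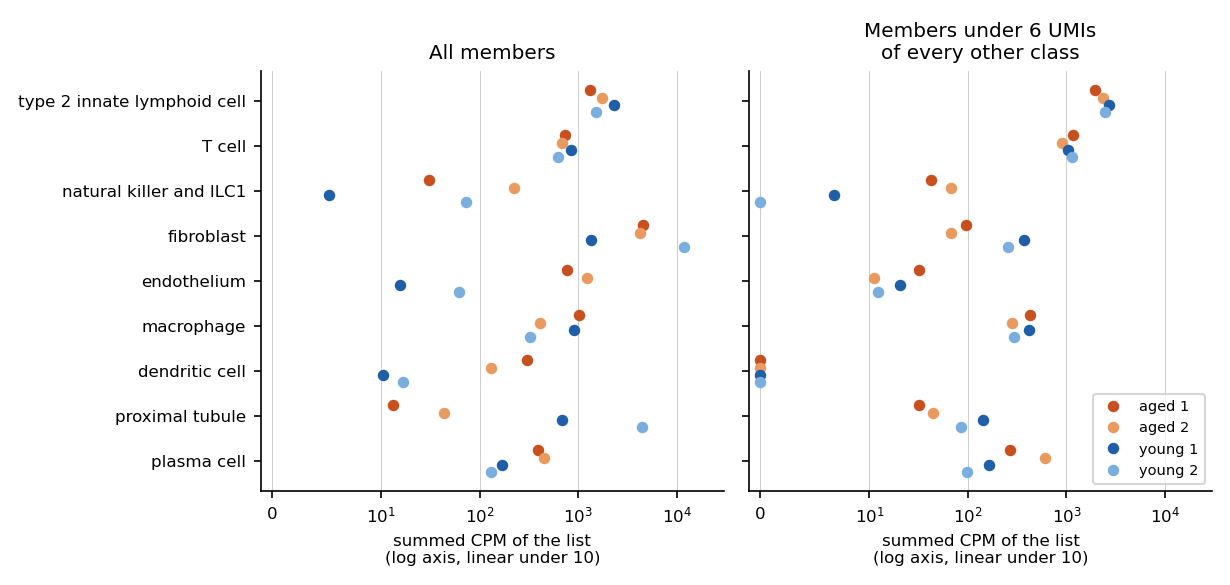
Summed CPM of 9 marker lists in each library, for all members (left) and unmixed members (right). In all members the endothelial list was at 765 and 1231 CPM in aged and at 15.6 and 61.7 CPM in young libraries, while in unmixed members it was at 31.8 CPM or less in each of the 4.

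The receptor for interleukin-33 was the gene that brought in most members, with 148 of 160 holding an Il1rl1 UMI, against 86 with Arg1, 36 with Calca and 27 with Il17rb. Il1rl1 lies on chromosome 1 at chr1:40429570-40465415 (GRCm38, plus strand), and Gata3 on chromosome 2 at chr2:9857078-9890034 on the minus strand. The RefSeq promoter table (build GRCm38.p6) holds 2 start sites for Il1rl1, and had an entry for 5 of the 6 genes that the rule asks for. Both Il1rl1 windows, from 250 bases before to 50 bases after the start, are shown because the rule couples this gene to Gata3, whose family binds the letters GATA. Capitals mark every match to AGATAA or AGATAG or TGATAA or TGATAG on either strand.

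Il1rl1 start 1: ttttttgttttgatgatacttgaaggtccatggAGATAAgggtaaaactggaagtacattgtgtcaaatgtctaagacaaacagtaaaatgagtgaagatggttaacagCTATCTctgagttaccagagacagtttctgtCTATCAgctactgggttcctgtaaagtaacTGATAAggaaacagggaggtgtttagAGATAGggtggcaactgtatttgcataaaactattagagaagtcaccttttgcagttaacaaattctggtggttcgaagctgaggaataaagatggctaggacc
Il1rl1 start 2: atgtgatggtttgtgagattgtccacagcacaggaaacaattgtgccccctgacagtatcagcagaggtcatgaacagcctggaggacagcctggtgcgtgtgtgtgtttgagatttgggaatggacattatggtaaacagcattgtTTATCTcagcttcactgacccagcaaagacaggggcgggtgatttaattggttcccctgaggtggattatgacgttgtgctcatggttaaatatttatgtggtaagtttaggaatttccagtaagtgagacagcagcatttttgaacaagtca

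The upstream window, chr1:40429320-40429619, held 5 matches, and the downstream one, chr1:40439379-40439678, held 1. At least 1 match was present in 29.8% of the 32851 promoter windows of that length, and 5 or more in 0.0548%. A match of letters describes the sequence and is no measured binding site. The droplet reads come from the 3' ends of transcripts and do not say which start was used.

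The level of Il1rl1 in unmixed members was 817 and 745 CPM in aged and 952 and 799 CPM in young libraries, and that of Gata3 was 902 and 789 CPM against 1006 and 848 CPM. The aged and young libraries overlapped for both genes. Both are values that the rule used and are given as a description only. Of the 160 members, 28 had a sum of exactly 2 over the 4 receptor, enzyme and peptide genes, and 46 had a single Gata3 UMI. Just outside the rule stood 37 barcodes with a sum of 1, 249 with no Gata3 UMI and 32 with a Cd3e UMI. Of those 32, 14 and 15 were from aged and 2 and 1 from young libraries.

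As a share of all kept barcodes the members did not differ between the ages beyond the spread of the libraries. The share was 0.577% (exact 95% binomial interval 0.410 to 0.787%) and 0.342% (0.246 to 0.464%) in aged libraries, and 0.545% (0.404 to 0.720%) and 0.322% (0.219 to 0.456%) in young libraries. The means were 0.460 ± 0.166% and 0.433 ± 0.158% (SD, n = 2 libraries each), and the exact two-sided permutation test gave p = 0.667, where 0.333 is the smallest that 2 against 2 libraries allow. Over barcodes with a Ptprc UMI, the blood cells, the share was 0.920% and 0.629% in aged and 1.61% and 1.01% in young libraries, which did not overlap, at that smallest p of 0.333. Leaving out barcodes with Cd3e or Cd79a, markers of T and B cells, gave 1.56% and 1.02% in aged and 1.77% and 1.10% in young libraries, which overlapped again. A share depends on how many cells of other kinds were recovered: T cells numbered 1208 and 1726 in aged and 188 and 148 in young libraries.

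Compared with T cells (barcodes with Ptprc and Cd3e) of the same libraries, and outside the rule, members were richest in a small set of genes, given here as a description without a test. Among 972 genes with a symbol at 100 CPM or more in the members of each library, the 15 with the highest ratio of mean CPM to T cells began with Nrgn, which encodes neurogranin, at 69.4-fold (341 and 4.92 CPM). Rnf128, a ubiquitin ligase also known as GRAIL, stood at 48.2-fold and the amino acid transporter Slc7a8 at 42.2-fold. Next came Areg at 31.3-fold (517 CPM in members and 16.5 CPM in T cells) and the lipid enzyme Lpcat2 at 23.9-fold. The cytokine Csf2, known as GM-CSF, stood at 14.6-fold, the inhibitory receptor Klrg1 at 12.5-fold, the leukotriene B4 receptor Ltb4r1 at 7.48-fold and the interleukin-2 receptor chain Il2ra at 7.39-fold. The remaining 6 genes, Ptpn13, Lztfl1, Hilpda, Nfkbiz, Ahcyl2 and Fosb, lay between 4.77-fold and 9.58-fold. In unmixed members the same 15 ratios were larger and ran from 6.42 to 110-fold, Nrgn again leading. These ratios are to T cells only. In natural killer cells Nrgn had the highest mean of the 15 genes, 153 CPM beside 341 CPM in all members. Natural killer cells were barcodes outside the members with Ptprc, no Cd3e and at least 2 UMIs over Ncr1, Klrb1c and Klre1.

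Csf2 and Il13 were unevenly spread over the members. Csf2 had a UMI in 42.3% and 30.0% of aged and 31.8% and 43.5% of young unmixed members, at a median depth of 3507 and 2737 UMIs in aged and 3406 and 3006 UMIs in young libraries. Its level was 350.0 and 456 CPM in aged and 371 and 230.1 CPM in young libraries, which overlapped. One member held 32 of the 41 Csf2 UMIs of aged replicate 2. Il13 was seen in 15.4% and 6.67% of aged and 9.09% and 8.70% of young unmixed members, and 13 of its 14 UMIs in young replicate 2 were in 1 member. In T cells, at similar depths, the share with Il13 was at most 0.166%. Il5 had a UMI in 0 and 1 aged and 6 and 1 young unmixed members, and Il9 had none in 123, which allows up to 2.44% of these cells to hold a UMI. Of the unmixed members with Il13, 5 of 6 aged and 2 of 6 young ones also held Areg.

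In the test of age over all 160 members, 13 of 3115 genes (0.417%) passed edgeR's quasi-likelihood test at an adjusted p under 0.05, and most of them were genes of other cell classes. The 6 that rose (0.193%) were 5 endothelial genes and 1 immunoglobulin gene. Plvap, a protein of fenestrated capillaries, was at 413 and 779 CPM in aged and at 0 and 5.61 CPM in young members (log2 fold change 7.43, SE 0.72, adjusted p = 0.0273). Ptprb, Adgrl4, Flt1 and Pecam1, also of blood vessels, rose too, with adjusted p-values of 0.0273 to 0.0348. The immunoglobulin light chain gene Igkc was at 261 and 359.5 CPM in aged and at 10.4 and 0 CPM in young members. The 7 that fell (0.225%) included Miox, Fxyd2 and Slc34a1 of the kidney tubule (adjusted p = 0.0273 to 0.0389). Slc34a1, a phosphate transporter, was at 0 CPM in both aged and at 214 and 465 CPM in young members. In unmixed members Plvap and Flt1 had 0 UMIs in each library, Slc34a1 had 3 UMIs in all, and Pecam1 was at 31.8 and 11.1 CPM in aged and 13.5 and 12.1 CPM in young libraries.

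The other genes lower over all members were Stmn1, mt-Rnr1, Gm42418 and Arg1, the last of which the rule used. Stmn1, a microtubule protein high in dividing cells, was at 8.69 and 21.8 CPM in aged and 214 and 163 CPM in young members (log2 fold change -3.68, SE 0.46, adjusted p = 0.0348). The count of genes past the threshold was 30 when aged replicate 1 was left out, 3 without aged replicate 2, and 221 and 229 without young replicates 1 and 2. DESeq2 called 27 genes (0.867%). Without barcodes holding Cd3d, Cd3g, Trac or Foxp3 edgeR called 0 genes (0.0%), with 179 at an unadjusted p under 0.05, and DESeq2 was not run on that set.

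Among the unmixed members 52 of 1383 genes tested (3.76%) passed the threshold, 22 higher (1.59%) and 30 lower (2.17%) in aged libraries, and 4 of them, Arg1, Gm42418, Igkc and mt-Rnr1, had also passed over all members. The counts include Arg1 and Il17rb, whose values the rule used, so nothing is read from their calls. Among unmixed members without Cd3d, Cd3g, Trac or Foxp3, edgeR called 43 of 1128 genes, 38 of them among the 52. In the edgeR fit of all unmixed members the spread pooled over genes carried 490 prior degrees of freedom, against 4.57 over all members. Its p-values therefore rest on the pooled spread and hardly on each gene's own spread among the 4 libraries. DESeq2, which estimates the spread between libraries otherwise, called 11 genes (0.795%), all among the 52. Leaving out each library in turn, 11 of the 52 passed every time: Lgals1, S100a6, S100a11, Arg1, Ahnak, Tagln2, Crip1, Ccr9, Gm42418, AY036118 and mt-Rnr1. Arg1 is described only, as a gene of the rule. Of the 52, 17 were lost when aged replicate 1 was left out, 35 without aged replicate 2, and 27 and 26 without young replicates 1 and 2. Every called gene named below other than those 11 was lost without at least 1 library, and of these DESeq2 called Igkc alone.

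The largest fall was in Lgals1, which encodes galectin-1, a sugar-binding protein of immune and stromal cells (chr15:78926725-78930465). Its level was 276 and 77.8 CPM in aged and 1418 and 2470.3 CPM in young unmixed members. Both aged libraries lay far below both young ones (log2 fold change -3.40, SE 0.27, adjusted p = 1.25e-28 in edgeR and 0.00856 in DESeq2). A UMI of Lgals1 was present in 19.2% and 16.7% of aged and 65.9% and 65.2% of young unmixed members, and after thinning each barcode to 2000 UMIs in 20.8% and 14.3% against 75.0% and 63.6%. In young replicate 2 a single member held 72 of the 204 Lgals1 UMIs. Lgals1 is abundant in fibroblasts, at 1649.8 and 1575 CPM in aged and 1178 and 1166 CPM in young libraries. The fibroblast list moved the same way as Lgals1 in unmixed members, at 95.5 and 66.7 CPM in aged and 371 and 254 CPM in young libraries, and its part in the falls of Lgals1, the S100 genes and Vim was not tested. Col1a1, a collagen gene of that list, had 1 and 0 UMIs in aged and 7 and 2 UMIs in young unmixed members.

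Of the S100 genes, which encode small calcium-binding proteins, 5 were tested and 4 fell. They are no list fixed for the tests and were grouped here after their values had been seen. S100a6 was at 1219.8 and 801 CPM in aged and 2708 and 3487 CPM in young unmixed members (log2 fold change -1.60, SE 0.18, adjusted p = 1.44e-14). S100a11 was at 403 and 222 CPM in aged and 912 and 1235 CPM in young libraries (-1.74, SE 0.27, adjusted p = 6.90e-08). The aged and young libraries did not overlap for either. S100a10, at 1527 and 1334 CPM in aged and 2377 and 2591 CPM in young libraries, and S100a13 also passed (adjusted p = 6.67e-04 and 0.0408), and S100a4 did not (adjusted p = 0.0882). These 5 genes lie on chromosome 3.

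Ahnak, Tagln2 and Crip1 were among the other genes that fell. Ahnak, a very large scaffold protein, was at 308 and 133 CPM in aged and 723 and 739 CPM in young unmixed members (log2 fold change -1.71, SE 0.30, adjusted p = 2.76e-06). Tagln2, an actin-binding protein, was at 519.8 and 623 CPM in aged and 1296 and 1526 CPM in young libraries (-1.29, SE 0.23, adjusted p = 2.88e-06). Crip1, a small LIM-domain protein, was at 1124 and 611 CPM in aged and 1918 and 2046 CPM in young libraries (-1.18, SE 0.20, adjusted p = 7.64e-07). All 3 kept the aged libraries below the young ones. The filament gene Vim, the actins Actb and Actg1 and the myosin light chain Myl6 also passed, with log2 fold changes of -0.64 to -1.20, as did the nuclear lamina gene Lmna (-1.71, adjusted p = 0.0494).

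Arg1 (chr10:24915221-24927484, minus strand) is one of the rule's genes, so its level in the members is a description. It was at 117 and 156 CPM in aged and 655 and 811 CPM in young unmixed members, with a UMI in 38.5% and 26.7% of aged and 75.0% and 78.3% of young ones. At most 1.35% of T cells in any library held one. Arg1 was also lower in aged T cells without markers of another class, at 2.23 and 1.43 CPM against 5.14 and 17.8 CPM in young ones. Its log2 fold change there was -2.41 (SE 0.68, edgeR adjusted p = 0.0438). Those T cell levels rest on few UMIs in each library. The change in unmixed members minus that in T cells was -0.02 (SE 0.37). Barcodes chosen without Arg1, by 2 or more Il1rl1 UMIs in place of the sum, gave a test that the rule did not fix. The 35 aged and 55 young unmixed barcodes of that kind are all among the 123 unmixed members. The fit reuses their counts and is no independent support. The log2 fold change of Arg1 in them was -2.73 (SE 0.36, edgeR adjusted p = 0.00837). Lgals1, S100a6, Tagln2 and Crip1 were also lower, with adjusted p-values of 0.00340 to 0.0286. The chemokine receptor Ccr9 rose there (adjusted p = 0.0102), while S100a11 and Ahnak did not pass (adjusted p = 0.0739 and 0.144). Of the 13 genes fixed for arginine and polyamine metabolism, 3 were tested, Arg1 among them, and Oaz1 and Sat1 did not pass (adjusted p = 0.829 and 0.780). Odc1, the first enzyme of polyamine synthesis, was at 84.9 and 55.6 CPM in aged and 87.8 and 96.9 CPM in young unmixed members and was too low to be tested.

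**Figure D3:**
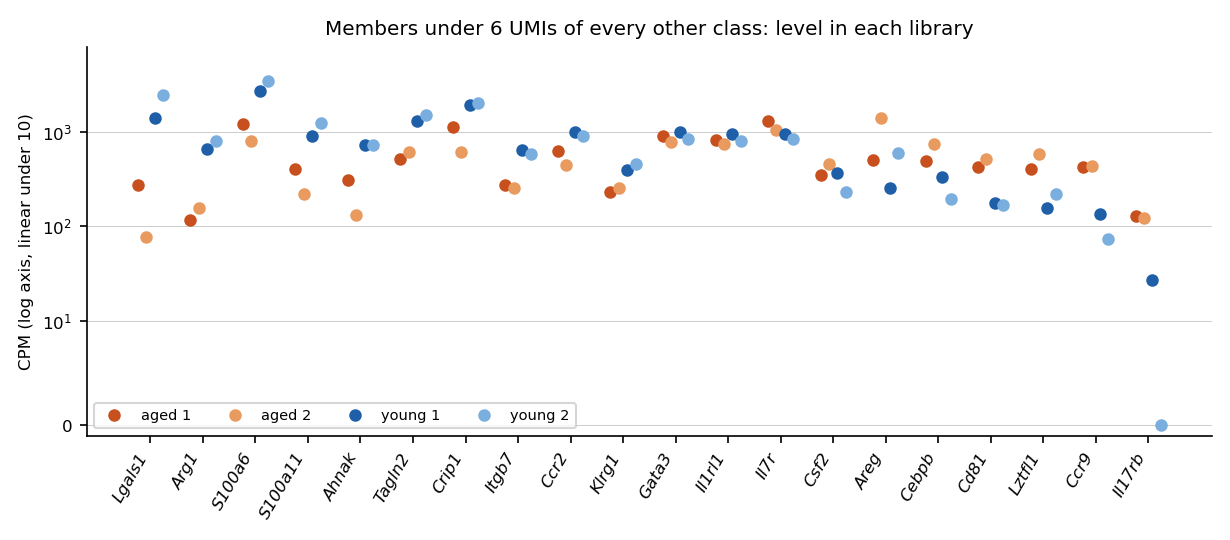
CPM of 20 genes in the unmixed members of each library, 2 aged and 2 young (log axis, linear under 10). Lgals1, Arg1, the S100 genes and the others on the left had both aged libraries below both young ones, Ccr9 and Il17rb on the right had both above, and Gata3, Il1rl1 and Csf2 overlapped.

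Of 26 genes for homing and residency, 14 were tested, 1 rose and 2 fell, beside 1.59% and 2.17% of all 1383 genes. Ccr9, the receptor for the chemokine CCL25 that guides lymphocytes to the gut, was at 424 and 434 CPM in aged and 135 and 72.7 CPM in young unmixed members. It rose (log2 fold change 1.93, SE 0.36, adjusted p = 9.49e-06), with both aged libraries above both young ones, and held in each of the 4 fits with a library left out, though DESeq2 gave an adjusted p of 0.0550. A UMI was present in 38.5% and 50.0% of aged and 18.2% and 13.0% of young unmixed members, against 0.911% and 0.695% of aged and 4.26% and 1.35% of young T cells. Lztfl1, a ciliary trafficking gene, was at 403 and 589 CPM in aged and 155 and 218 CPM in young unmixed members (log2 fold change 1.45, SE 0.32, adjusted p = 3.55e-04). It lies inside the span of Ccr9 on the opposite strand of chromosome 9, at chr9:123694416-123717697 within chr9:123678439-123784330, and the labels do not say whether counting used the strand, so reads of one may be counted for the other. Ccr2, a receptor for inflammatory chemokines, and Itgb7, an integrin chain of gut homing, fell with log2 fold changes of -0.84 and -1.21 (adjusted p = 0.0269 and 0.00266). In T cells without markers of another class their changes were -0.45 and -0.49 (edgeR adjusted p = 0.0840 and 0.0375). The differences between members and those T cells did not pass (edgeR class by age, adjusted p = 0.889 and 0.606). The median log2 fold change of the 14 homing genes tested was -0.29, beside -0.002 over all 1383 genes.

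Areg was the effector cytokine called in unmixed members, but its libraries overlapped. It was at 509 and 1412 CPM in aged and 257 and 593 CPM in young unmixed members (log2 fold change 1.27, SE 0.27, edgeR adjusted p = 2.28e-04), and aged replicate 1 lay below young replicate 2. Without aged replicate 2 the adjusted p was 0.844, without young replicate 1 it was 0.398, and DESeq2 gave 1.00. In aged replicate 2 a single member held 54 of its 127 UMIs. Areg was also higher in aged T cells without markers of another class, at 22.5 and 28.5 CPM against 6.85 and 4.46 CPM in young ones. Its log2 fold change in those T cells was 2.23 (SE 0.47, edgeR adjusted p = 0.00518). The young T cell levels rest on few UMIs in each library. The change in unmixed members minus that in T cells was -0.98 (SE 0.63, edgeR adjusted p = 0.846). Of the 22 effector cytokines fixed, 17 had a UMI and 4 were tested, 1 rose, beside 1.59% of all genes tested, and none fell. Csf2, Il13 and Tgfb1 did not pass (adjusted p = 0.693, 0.948 and 0.971). The chemokine Ccl5 was at 212 and 600.4 CPM in aged and 40.5 and 133 CPM in young unmixed members (2.40, SE 0.40, adjusted p = 6.40e-07, and 0.271 without aged replicate 2). It was far higher in T cells, at 9798 and 10158 CPM in aged and 3472 and 4531 CPM in young T cells without markers of another class. The natural killer list moved the same way as Ccl5 in unmixed members, at 42.4 and 66.7 CPM in aged and 6.75 and 0 CPM in young libraries, and its part was not tested.

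Of the 24 receptors for alarm signals and cytokines, 10 were tested, and none outside the rule was called. Il17rb, which the rule uses, had 12 and 11 UMIs in aged and 4 and 0 UMIs in young unmixed members, given as a description without a test. Il7r, the receptor for the survival factor interleukin-7, was at 1305 and 1056 CPM in aged and 966 and 848 CPM in young unmixed members. Both aged libraries were higher, but the gene did not pass (log2 fold change 0.37, SE 0.21, adjusted p = 0.470). Il2ra, Il2rg, Crlf2, Ifngr1 and Tgfbr2 overlapped or did not pass (adjusted p = 0.701 to 0.973). Icos, a costimulatory receptor, was at 202 and 145 CPM in aged and 81.0 and 48.4 CPM in young unmixed members without passing (adjusted p = 0.112).

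Calca, one of the rule's genes, differed between libraries of 1 age. It had 9 and 57 UMIs in aged and 14 and 1 UMIs in young unmixed members, which is 95.5 and 634 CPM against 94.5 and 12.1 CPM. Of 16 aged unmixed members with a Calca UMI, 13 also held Areg, against 16 of the 40 without Calca. Among young ones 3 of 7 with Calca and 17 of 60 without it held Areg. Ramp1, a chain of the CGRP receptor, was at 350.0 and 289 CPM in aged and 696 and 496 CPM in young unmixed members (log2 fold change -0.93, SE 0.29, adjusted p = 0.0382). It was the only neuropeptide gene of 21 abundant enough to be tested. Nmur1, the neuromedin U receptor, had 2 and 0 UMIs in aged and 1 and 4 UMIs in young unmixed members.

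**Figure D4:**
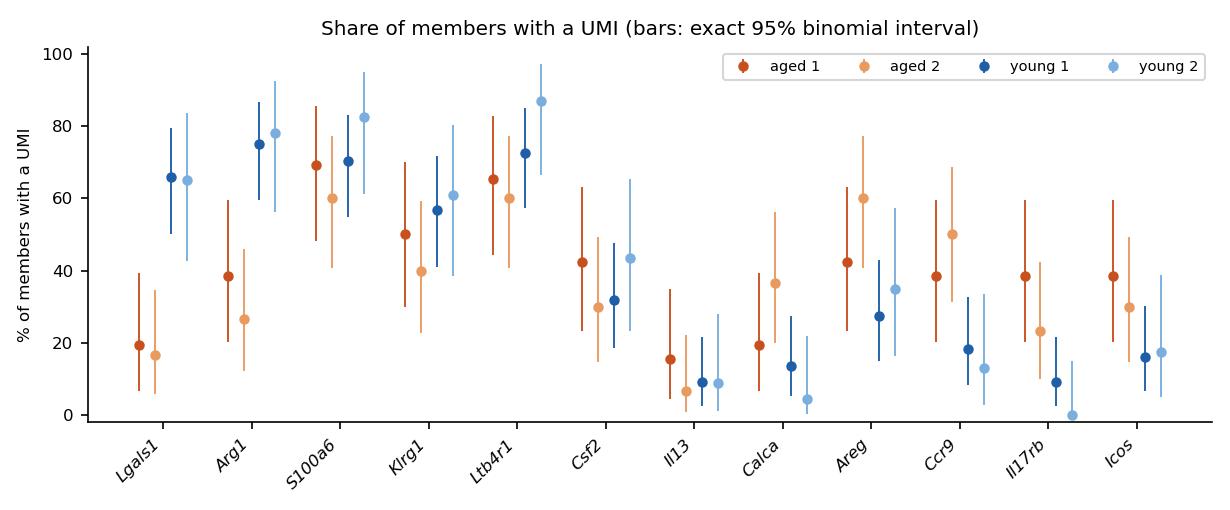
Percent of unmixed members with a UMI of 12 genes in each library, with exact 95% binomial intervals that cover counting error only. The shares with Lgals1 were 19.2% and 16.7% in aged and 65.9% and 65.2% in young libraries, with intervals that do not overlap, while those of Csf2 and Il13 overlapped widely.

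Of 23 transcription factors of the lineage, 8 were tested in unmixed members and 1, beside 1.59% of all genes, rose. This was Cebpb, at 488 and 745 CPM in aged and 338 and 194 CPM in young libraries (log2 fold change 1.14, SE 0.29, adjusted p = 0.00436). Besides Gata3, the factors Id2, Bcl11b, Ets1, Rora, Maf and Runx3 did not pass (adjusted p = 0.441 to 0.792), and the median log2 fold change over the 8 was -0.32, beside -0.002 over all genes tested. In the immediate early and stress list Junb, Ier2 and Dnajb1 rose among 18 of 26 tested, with log2 fold changes of 0.45 to 1.60, and the median was 0.20. All 40 ribosomal protein genes were tested, 35 were positive, Rpl19, Rps7 and Rps24 rose and the median was 0.27. Both counts stand beside 1.59% of all genes tested that rose. The summed ribosomal protein list was higher in other aged classes too. In T cells it was at 154464 and 147725 CPM in aged and 121399 and 117915 CPM in young libraries. In fibroblasts it was at 87970 and 85080 CPM in aged and 71668 and 69752 CPM in young libraries. For oxidative phosphorylation all 26 genes were tested, none was called and the median was -0.03. The lists for glycolysis (6 tested), interferon response (2), cell cycle (2), survival (4), costimulation and checkpoints (5), class I presentation (12), NF-kB targets (5), senescence (2), lipid uptake (1), class II presentation (1) and mitochondrially encoded genes (8) had no call. Alox5, the first enzyme of leukotriene synthesis, fell (-1.30, adjusted p = 0.0269) among 4 genes of lipid mediators tested, and Klrg1 did not pass at 233 and 256 CPM in aged and 392 and 460.1 CPM in young libraries (adjusted p = 0.156). Mki67, a marker of cycling cells, had 0 UMIs in both aged and 1 and 11 UMIs in young unmixed members, in 2 cells, and was too low to be tested.

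Some of the remaining calls were of ribosomal RNA. Gm42418 and AY036118, overlapping annotations on opposite strands of chromosome 17 that are known to collect ribosomal RNA reads, fell, Gm42418 to 16961 and 14965 CPM in aged against 45329 and 38858 CPM in young unmixed members. Lars2, a mitochondrial tRNA synthetase, and the mitochondrial ribosomal RNA mt-Rnr1 fell as well (adjusted p = 0.00297 and 2.35e-07). Gm42418 was also lower in aged T cells without markers of another class (log2 fold change -1.29, SE 0.11, against -1.40, SE 0.12, in members), and the difference between the changes was -0.09 (SE 0.14, adjusted p = 0.964). Igkc likewise was at 191 and 511 CPM in aged and 13.5 and 0 CPM in young unmixed members, and at 266 and 499 CPM in aged and 13.7 and 4.46 CPM in young T cells. The B cell list was also higher in aged unmixed members, at 212 and 278 CPM against 176 and 72.7 CPM in young ones. The plasma cell list, which includes Igkc, was at 23449 and 37950 CPM in aged and 531 and 344 CPM in young kept barcodes. In fibroblasts that list was at 4159 and 7851 CPM in aged and 183 and 188 CPM in young libraries. The part of either list in the level of Igkc was not tested. Of the 52 calls, 2 had overlapping libraries, Areg and Furin, and Furin rested on young replicate 1 alone, at 675 CPM, against 106 and 145 CPM in aged libraries and 109 CPM in young replicate 2. Cd81 (log2 fold change 1.44), Neurl3 (1.24), Vps37b (1.36), St3gal6 (1.63), Mkks (1.84), Phlda1 (1.26), Malat1 (0.70) and Rps10 (0.56) also rose, as did 2810474O19Rik (1.45), while Ctla2a (-1.69), Ptpn7 (-1.69), Atp2b1 (-1.40), Calr (-1.31), Tmem64 (-1.26), Ucp2 (-1.04) and Gm26532 (-0.99) also fell.

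Whether these changes differed from those of T cells in the same libraries was tested as cell class by age. With all members, 4 of 7273 genes (0.055%) passed, Lgals1, Fxyd2, Cxcl10 and Sfrp1. With size factors of the DESeq2 type in edgeR the count was 0, with 610 genes at an unadjusted p under 0.05. It was 17 when aged replicate 1 was left out, 77 without aged replicate 2, and 71 and 354 without young replicates 1 and 2. With unmixed members and T cells without markers of another class, 21 of 5016 genes (0.419%) passed, 8 with a higher (0.159%) and 13 with a lower (0.259%) change in members. For these T cells the natural killer list set no limit. That fit was run in a single setting, so its 21 calls were not tried with a library left out or with other size factors. Lgals1 was at 992 and 1137 CPM in aged and 992 and 1299 CPM in young T cells, and the difference between the changes was -3.37 (SE 0.28, adjusted p = 5.95e-16). S100a6 was at 2977 and 3488 CPM in aged and 2148 and 2151 CPM in young T cells, the opposite direction to members (-2.26, SE 0.19, adjusted p = 7.07e-16). S100a11, Crip1 and Vim showed differences of -2.04, -1.23 and -1.55. Ctla2a, a cysteine protease inhibitor, was at 763 and 779.6 CPM in aged and 308 and 477 CPM in young T cells, against 202 and 111 CPM in aged and 547 and 460.1 CPM in young unmixed members (-2.82, SE 0.33, adjusted p = 1.30e-09). Ccr9 and Icos differed the other way, at 3.35 (SE 0.79, adjusted p = 0.0196) and 2.24 (SE 0.48, adjusted p = 0.00537). Icos was at 72.6 and 78.3 CPM in aged and 152 and 145 CPM in young T cells. T cells here are Cd3e-positive barcodes of any subset, and whether their subsets differed in number between the ages was not tested.

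**Figure D5:**
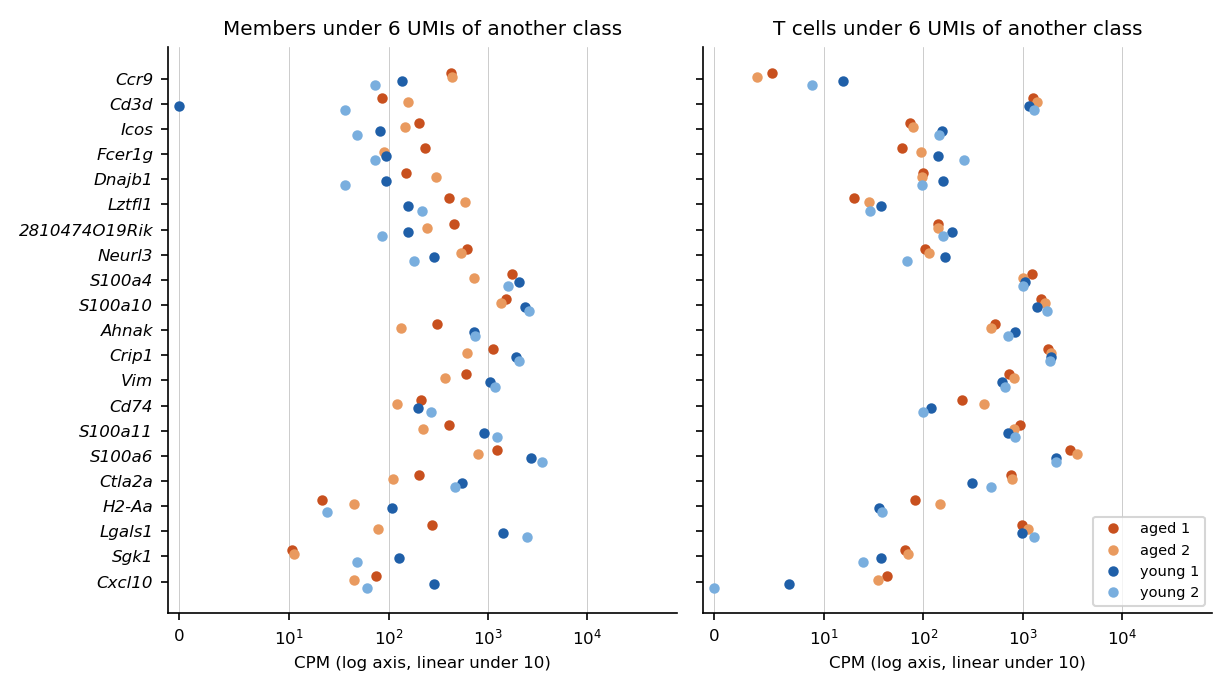
CPM of the 21 genes whose change with age differed between classes, in unmixed members (left) and in T cells without markers of another class (right), for 2 aged and 2 young libraries. Lgals1 spanned 77.8 to 2470.3 CPM over the members' libraries and 992 to 1299 CPM over those of T cells.

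Which of these genes a member held together was counted over unmixed members. Lgals1 was found in 35 of 51 young members with Arg1 and in 9 of 16 without it, and in 4 of 18 aged members with Arg1 and in 6 of 38 without it. Klrg1 was found in 32 of 44 young members with Lgals1 and in 7 of 23 without it, and in 7 of 10 aged members with Lgals1 and 18 of 46 without it. Ccr9 was found in 5 of 18 aged members with Arg1 and in 20 of 38 without it, and in 7 of 51 and 4 of 16 young ones. Such counts move with the depth of a barcode and are given as a description.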

How the data were processed

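UMI counts per gene and barcode were deposited by the authors as 1 matrix per library, made from 10x Chromium 3' v3.1 libraries with Cell Ranger 6.0.2 on GRCm38 per the submitters' processing notes, and 6.0.1 per the file headers. Counting settings, strand use and cell calling are not stated. Of 39436 deposited barcodes, 37361 had at least 500 UMIs, 300 genes and at most 20% mitochondrial UMIs. No deposited annotation of cell types was used. T cells were barcodes with Ptprc and Cd3e, no Cpa3 and fewer than 6 UMIs over C1qa, C1qb and C1qc. Counts were summed per library and class and tested with edgeR 4.0.16 (TMM, filterByExpr, quasi-likelihood test, Benjamini-Hochberg adjustment over all genes tested) in R 4.3.3. DESeq2 1.42.0 was an alternative. CPM are plain shares of the summed UMIs. Scrublet, in scanpy 1.11.5 (Python 3.11.15), scored doublets within each library. It removed no barcode in the tests reported unless stated. Shares were compared by exact permutation over libraries (scipy 1.17.1).

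The members and gene lists were chosen with earlier results of these data known. The limit of 6 UMIs on marker lists of 10 other classes, and the fits on unmixed members, were added after the data had been seen. For T cells without markers of another class, the natural killer list was left out of that limit. Genes named were those of the membership rule, the 10 called genes with the largest change each way whose libraries did not overlap and whose mean was at least 50 CPM, called members of the fixed lists, up to 8 genes a list with the highest mean CPM, the 5 largest class-by-age differences each way within the same limits on overlap and mean, and the 15 highest over T cells. The other called genes, and Cd3d, Trac, Trbc2, Mki67 and S100a4, were named after their values had been seen. Of 52636 genes, 52403 had a GENCODE M21 identifier, from which coordinates were taken. The edgeR steps were tested on simulated counts with known changes. Every gene was drawn with the same spread, the one pooled over genes. For class by age T cells were given the members' spread, and no library effect was shared between the classes. Recovery and false calls in the real counts may therefore differ. Over all members 7.27% of 2-fold and 83.9% of 4-fold changes were recovered, and in unmixed members 36.1% and 92.7%. For class by age over all members 15.5% of 4-fold changes were recovered. False calls numbered 0 to 8 in a run. A gene that did not pass can therefore still have changed 2-fold. Other settings tried were normalization, the low-count filter, DESeq2, each library left out, a replicate block, thinned counts and stricter membership. Intervals cover counting error only.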

Additional observations from a re-analysis of the deposited data

Results flagged for a closer look

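For 14 named results the change with age differed between members and T cells of the same libraries by a test of the difference itself (edgeR quasi-likelihood, class by age). Over all members these were Lgals1 (difference of log2 fold changes -2.08, adjusted p = 0.0499), Cxcl10 (-5.04, adjusted p = 0.0499), Fxyd2 (-4.75, adjusted p = 0.0499) and Sfrp1 (3.56, adjusted p = 0.04997). All 4 stood just under the threshold, and Fxyd2 and Sfrp1 are genes of the tubule and of fibroblasts. In unmixed members Fxyd2 had 0 and 2 UMIs in aged and 3 and 4 UMIs in young libraries, and Sfrp1 had 1 and 0 UMIs in aged and 1 and 0 UMIs in young ones. In unmixed members Cxcl10 was at 74.3 and 44.5 CPM in aged and 284 and 60.5 CPM in young libraries, and 29 of its 42 UMIs in young replicate 1 were in 1 member.

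Between unmixed members and T cells without markers of another class, the difference was negative for Lgals1 (-3.37), S100a6 (-2.26), S100a11 (-2.04), Ctla2a (-2.82) and Vim (-1.55). It was positive for Ccr9 (3.35), Icos (2.24), Lztfl1 (1.87), Dnajb1 (1.99) and Cd3d (2.95). Adjusted p-values from edgeR ran from 5.95e-16 for Lgals1 to 0.0354 for Cd3d, in a fit not repeated with a library left out or with other size factors. Cd3d is a T cell gene that the rule does not test for, with 8 and 14 UMIs in aged and 0 and 3 UMIs in young unmixed members, and the part of T cells in it was not tested.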

How the results depend on the processing

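The difference in members' share of kept barcodes, aged minus young, was 0.0261 percentage points. It was -0.534 over barcodes with Ptprc, -0.143 without T and B cells, -0.0629 after thinning to 2000 UMIs, -0.00476 with a sum of at least 3, -0.0419 without Scrublet barcodes, -0.0466 for unmixed members, and -0.0910 to 0.143 with 1 library left out. No call stood behind any of these, since an exact permutation test of 2 against 2 libraries cannot go below p = 0.333.

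Over all members edgeR called 13 genes. The count was 211 with no filter on low counts, 27 by DESeq2, 26 with a replicate block, 3 to 229 with 1 library left out, 52 in unmixed members, and 0 without Cd3d, Cd3g, Trac or Foxp3 (179 at an unadjusted p under 0.05). In unmixed members the 52 calls became 11 by DESeq2, 30 with a replicate block, 20 to 49 with 1 library left out, 26 with a limit of 4 UMIs and 12 with the rule on Il1rl1. For class by age the 4 calls became 0 with RLE size factors (610 unadjusted) and 0 without T cell transcripts (495 unadjusted), 160 with no filter, 24 without Scrublet barcodes, 21 in unmixed members and 17 to 354 with 1 library left out. DESeq2 was not run for class by age, and the 21 calls in unmixed members were tried in no other setting. In unmixed members without Cd3d, Cd3g, Trac or Foxp3 the 52 calls with age became 43, of which 38 were shared. Where a library was left out, the lone one of its age was assumed to vary like the others.

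Of 881 recomputed values of called genes, 879 kept their direction. Since these fits reuse the counts by which the genes were called, this is no independent support. Many of the values that kept their direction no longer passed the threshold. Furin reversed to 0.21 without young replicate 1, against -2.45 without young replicate 2, and the class-by-age difference of Fxyd2 reversed to 0.55 in unmixed members. The cause was not tested. Over genes, the deviation of aged replicate 1 from the aged mean was correlated with that of young replicate 1 from the young mean. The correlation was 0.105 over all members and 0.0514 over unmixed members, from 2 pairs, so the numbers were not taken to pair samples. The class sums, 82582 to 148094 UMIs in unmixed members, left most cytokines and cell cycle genes too low to test.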
